A study of Mus musculus with 36 samples.

Results

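The cytosolic ribosomal protein genes made up 82 of the 18845 genes in the table of this series. They were chosen by symbol alone: every row named Rpl or Rps with a number and, where present, a following a, x or l, together with the stalk proteins Rplp0, Rplp1 and Rplp2 and the laminin receptor homologue Rpsa. Tissue-restricted paralogs such as Rpl3l stayed in. Rpl22, the protein that carries the purification tag in these mice, and its paralog Rpl22l1 were left out. Of the 82, 50 encode proteins of the large subunit (the stalk included) and 32 encode proteins of the small subunit.

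The 36 libraries hold RNA that was pulled down with ribosomes through a hemagglutinin tag (HA) on Rpl22, the RiboTag method, in which Cre recombinase switches the tagged exon on. All mice carried the Ribo-tag allele. In ChAT-Cre;Ribo-tag mice, Cre is driven by the choline acetyltransferase locus, which acts in cholinergic neurons and not in motor neurons alone; Ribo-tag mice without Cre give the background of the purification. There were 3 libraries in each of 12 groups: synapse-enriched diaphragm muscle of Cre-negative and of Cre-positive mice, and spinal cord of Cre-positive mice, each at embryonic age E15.5, at the postnatal days P0.5 and P10 and at 2 months (adult). The labels give no treatment, and Cre-negative spinal cord is not analysed here. The labels do not say that the libraries of a group came from separate animals, so p-values measure only the spread between these libraries, which may be technical.

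Each ribosome holds a single copy of nearly every ribosomal protein, so these genes are usually transcribed and translated together, and they are among the most abundant messengers of growing cells. Most of their messengers start with a terminal oligopyrimidine tract (TOP), a C followed by a run of C and T at the capped end, through which the mTOR pathway and the protein LARP1 set their translation. A few have paralogs with a narrower range of tissues, the best known being Rpl3l, which takes the place of Rpl3 in striated muscle.

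The starts of 8 of the genes named below are shown as examples, because the TOP tract is the sequence feature that ribosomal protein genes are known to share. The share of the 8 with a tract does not stand for all members, whose shares follow. Each run holds the 10 bases before and the 20 bases from the annotated transcription start on, on the transcript strand, 5′ to 3′, from RefSeq promoters of build GRCm38.p6. Capitals mark a tract, defined as a C followed by at least 4 bases that are each C or T and starting within 5 bases of the annotated start.
Rps27: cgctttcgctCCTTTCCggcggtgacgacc
Rpl38: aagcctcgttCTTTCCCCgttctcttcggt
Rpl39: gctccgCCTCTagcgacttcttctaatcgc
Rps27l: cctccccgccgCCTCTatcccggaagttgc
Rpl4: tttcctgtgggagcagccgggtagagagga
Rps7: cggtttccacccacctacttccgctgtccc
Rplp0: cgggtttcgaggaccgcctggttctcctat
Rpl3l: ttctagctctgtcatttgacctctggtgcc

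In build GRCm38.p6 these windows lie at chr3:90213629-90213658 (minus strand) for Rps27, chr11:114668570-114668599 (plus strand) for Rpl38, chrX:37085203-37085232 (minus strand) for Rpl39 and chr9:66946076-66946105 (plus strand) for Rps27l. Those of Rpl4, Rps7, Rplp0 and Rpl3l lie at chr9:64173377-64173406 (plus strand), chr12:28635934-28635963 (minus strand), chr5:115559457-115559486 (plus strand) and chr17:24727816-24727845 (plus strand). Each spans the promoter edge and the first bases of the transcript. The tract began at the annotated start itself in Rps27 and Rpl38, while Rpl4, Rps7, Rplp0 and Rpl3l held none within 5 bases of it. Rpl36a, Rpl36al and Rpl7l1, also named below but not printed, held none there either. Rps27l and Rpl3l each have a second annotated start in the table, chr9:66946403-66946432 and chr17:24732675-24732704 as windows of the same kind, and neither of these holds a tract, so that of Rps27l lies at 1 of its 2 starts. Of the 62 members with a promoter entry, 14 (22.6%) had a tract at the annotated start of at least 1 transcript, against 813 of 27025 genes (3.01%) in the whole promoter table. Allowing 5 bases on either side, 29 members (46.8%) held one, against 21.2% of all genes. Among 69 genes of mitochondrial ribosomal proteins, none had a tract at the start and 24.6% had one nearby. The search used the transcript strand only and depends on the annotated start, so a window without a tract says only that these letters were not found there.

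Values are CPM as the authors deposited them, the reads of a gene scaled to the same total in every library. They correspond to 68183061 to 106976388 counted reads in the 24 diaphragm libraries and 63704690 to 71750289 in the 12 spinal cord libraries. CPM is not divided by gene length, so levels are compared between libraries and not between genes. In bulk libraries such as these, fewer cells of a type and less RNA per cell cannot be told apart. The summed level of 10 motor neuron and cholinergic markers was 0.663% to 1.17% of the reads in the spinal cord libraries and 0.000192% to 0.00949% in the diaphragm libraries of both genotypes. Chat itself was at 0 in all Cre-negative libraries. In each group the library whose values were best fitted by a weighted sum of the other 2 is called the intermediate library. Its values lay between those of the other 2 for 62.8% to 87.4% of genes with at least 1 CPM in the diaphragm groups and for 48.1% to 60.1% in the cord groups, and it was replicate 3 in 9 of the 12 groups. In P0.5 Cre-positive diaphragm it was replicate 1, which followed replicate 3 with a weight of 0.96, while replicate 2 stood apart. Other diaphragm groups leaned to 1 library as well, with a larger weight of 0.5445 in adult Cre-negative to 0.812 in P0.5 Cre-negative diaphragm. At E15.5 it was 0.767 without Cre and 0.806 with Cre. A library that lies between the others for most genes narrows the spread of its group, so counts of calls are also given without the intermediate libraries, which leaves 2 libraries a group. These are the 2 libraries of the group that differ most. The setting thus widens the spread and has fewer libraries, and calls can be lost through that alone.

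All 82 members had reads in at least 1 library. Rpl41, Rps29 and Rpl38 took the most reads, with means over the 36 libraries of 4257 CPM for Rpl41, 3119.6 CPM for Rps29 and 3074 CPM for Rpl38. Rpl7l1 (19.3 CPM), Rpl39l (0.299 CPM, above 0 in 20 libraries) and Rpl32l (0.0508 CPM, above 0 in 12 libraries) took the fewest. Rpl32l stayed below the filter of at least 1 CPM in at least 3 libraries in all tests, as did Rpl39l in the test within spinal cord. Within a group, the median coefficient of variation over members with at least 10 CPM ran from 2.49% in adult cord to 16.7% in P0.5 Cre-positive diaphragm. Ribosomal protein genes have many processed pseudogenes, and how the counting split reads between them is not given in the sources used here. The values of all members are uncertain to that extent. Rps6, the small-subunit protein phosphorylated downstream of mTOR, ranged from 5.32 to 76.4 CPM.

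The ribosomal protein genes together took a larger share of the reads in the E15.5 diaphragm than at any later age, and no such step was seen in the spinal cord. In Cre-negative diaphragm the summed share was 15.1%, 15.6% and 15.7% at E15.5, 7.06%, 7.20% and 7.09% at P0.5, 8.05%, 8.51% and 8.18% at P10, and finally 8.62%, 7.73% and 8.97% in adults. In Cre-positive diaphragm it was 14.3%, 12.9% and 14.1%, then 6.47%, 8.41% and 6.54%, then 9.29%, 9.48% and 9.22%, and 7.30%, 8.07% and 8.04% in adults. The E15.5 libraries of both genotypes lay above all later diaphragm libraries. The ratio of the P0.5 mean to the E15.5 mean was 0.46 ± 0.0117 without Cre and 0.518 ± 0.0849 with Cre (n = 3 libraries a group). For such ratios of mean shares, the value after ± carries over the SDs of both groups. It is not the SD of single ratios. Spinal cord libraries held 7.62%, 9.43% and 8.28% at E15.5, 8.03%, 8.85% and 8.27% at P0.5, 7.65%, 7.93% and 7.79% at P10, and finally 6.97%, 7.14% and 7.06% in adults. The adult cord libraries lay below all others of that tissue, and the E15.5 and P0.5 cord libraries overlapped. No test is given for a sum over the members.

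**Figure D1:**
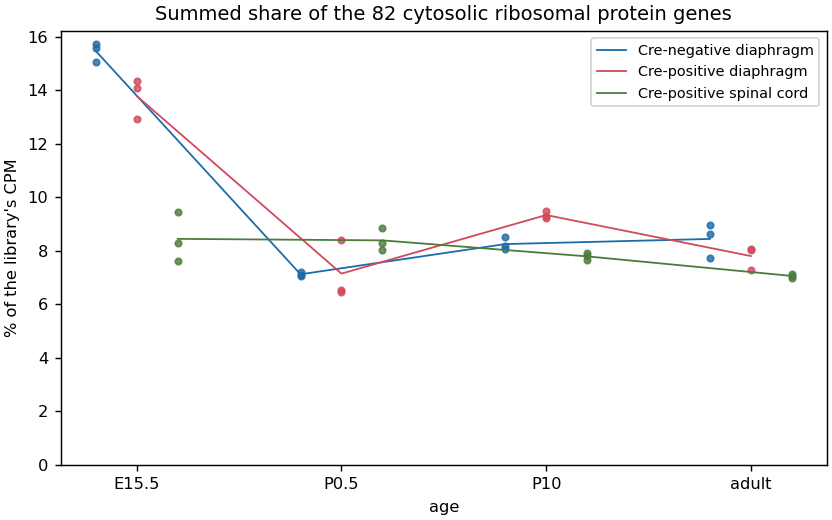
Summed CPM of the 82 ribosomal protein genes as a percentage of each library, by age, with a point for each of the 3 libraries of a group and lines through the group means; colours mark Cre-negative diaphragm, Cre-positive diaphragm and Cre-positive spinal cord. The E15.5 diaphragm libraries lie between 12.9% and 15.7%, above all other libraries.

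Between E15.5 and P0.5 the ribosomal protein genes of the diaphragm fell almost as a whole. Over both genotypes, 76 of the 81 genes tested fell and 1, Rpl3l, rose. Over all 13853 genes tested, 11.4% rose and 35.1% fell, which is the background against which the member counts are read. All backgrounds given here are for the CPM scale with all libraries. Member counts under other settings have no all-gene share beside them and show only how the calls depend on the setting. Counts of members called in both genotypes have no all-gene share either, so they are not read as particular to these genes. The median log2 difference, P0.5 minus E15.5 on the log2(CPM + 1) scale, was -1.05 over the members and -0.38 over all genes. Of the large subunit, 46 of 49 tested members fell, and of the small subunit 30 of 32. Tested in each genotype alone, 74 fell without Cre (background 30.2%, with 13.8% higher), 75 fell with Cre (background 18%, with 5.52% higher) and 73 fell in both. Without the intermediate libraries 74 fell and 1 rose. The markers of other cells also differed between these ages: 10 of 10 tested erythroid markers fell (summed level 11.8% to 21.6% at E15.5 and 0.586% to 1.29% at P0.5, with the embryonic globin Hbb-y at 0 from P0.5 on), 10 of 10 markers of dividing cells fell (0.04997% to 0.0710% and 0.00895% to 0.0170%), and 13 of 15 muscle markers rose (7.04% to 9.71% and 19.2% to 21.4%). Outside the muscle, erythroid and hepatocyte markers, the ribosomal protein share was 20.03% ± 0.312 at E15.5 and 9.04% ± 0.203 at P0.5 without Cre, and 18.6% ± 0.110 and 9.11% ± 1.46 with Cre (SD, n = 3). This measure takes only the marker genes out of the total, and ribosomal protein messengers of the same cells stay in the sum. It therefore cannot remove the part of those cells in the fall. The parts of erythroid, muscle, liver and dividing cells were not tested.

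Rps12, a small-subunit protein, had the largest fall among members with at least 10 CPM. Its CPM was 2432, 2685 and 2784 at E15.5 and 712, 619 and 635 at P0.5 without Cre, and 2809, 2057 and 2750.5 and then 783, 1174 and 782 with Cre. Every P0.5 library was below every E15.5 library, and the log2 difference ± standard error was -1.75 ± 0.09 (adjusted p = 3.04e-12, limma with Benjamini-Hochberg adjustment over all genes tested, as for all adjusted p below). The stalk proteins, which recruit translation factors to the ribosome, all fell: Rplp2 by 1.60 ± 0.08 (adjusted p = 1.16e-12), Rplp1 by 1.55 ± 0.08 (adjusted p = 1.61e-12) and Rplp0 by 0.71 ± 0.08 (adjusted p = 6.18e-07) on the log2 scale. Rpl36a, a large-subunit protein, fell too, with a log2 difference of -1.65 ± 0.13, adjusted p = 6.33e-10. Rps28 had a log2 difference of -1.65 ± 0.21, adjusted p = 1.66e-06, with the ranges of E15.5 and P0.5 libraries overlapping. Fau, a ubiquitin-like fusion that also ends in a ribosomal protein but lies outside the symbol rule, fell with a log2 difference of -1.22 ± 0.09, adjusted p = 7.70e-10.

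Rpl3l rose while Rpl3 fell at this step, and the pair kept moving apart in the diaphragm with age. Rpl3 sits close to the catalytic centre of the large subunit, and Rpl3l is its muscle paralog. Without Cre, Rpl3 was 1150.2, 1240.1 and 1334 CPM at E15.5, 712, 553 and 579 at P0.5, 285, 257 and 271 at P10, and finally 93.6, 87.3 and 95.9 in adults. With Cre it was 1081, 1131 and 1104, then 417, 497 and 425, then 256, 351 and 290, and 165, 102 and 118 in adults. In both genotypes the libraries of each age lay below all those of the age before. The log2 differences of Rpl3 at the 3 steps were -1.17 ± 0.11, adjusted p = 1.26e-08, then -0.88 ± 0.11, adjusted p = 1.97e-06, then -1.39 ± 0.11, adjusted p = 2.12e-09.

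Rpl3l without Cre was 65.3, 38.7 and 32.4 CPM at E15.5, 326, 359 and 358 at P0.5, 337, 331 and 348 at P10, and finally 724, 767 and 710.4 in adults. With Cre it was 30.8, 66.3 and 37.2, 336, 295 and 336, 384, 389 and 379 and, in adults, 706, 669 and 683. It rose from E15.5 to P0.5 (log2 difference 2.93 ± 0.15, adjusted p = 1.52e-12) and from P10 to adult age (log2 difference 0.97 ± 0.15, adjusted p = 4.33e-05), and the libraries of those ages did not overlap. From P0.5 to P10 its log2 difference was 0.11 ± 0.15 with an adjusted p of 0.615, and the libraries overlapped. The ratio of Rpl3l to Rpl3 CPM in Cre-negative diaphragm was 0.0374 ± 0.0171 (SD, n = 3), 0.575 ± 0.103, 1.25 ± 0.0598 and 7.97 ± 0.714 from the youngest to the oldest group. In Cre-positive diaphragm it was 0.0403 ± 0.0161, 0.730 ± 0.118, 1.31 ± 0.196 and 5.54 ± 1.17. These ratios are not corrected for messenger length, so they order the groups and do not give the share of ribosomes with either protein. In spinal cord the mean ratio stayed at or below 0.00523.

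**Figure D2:**
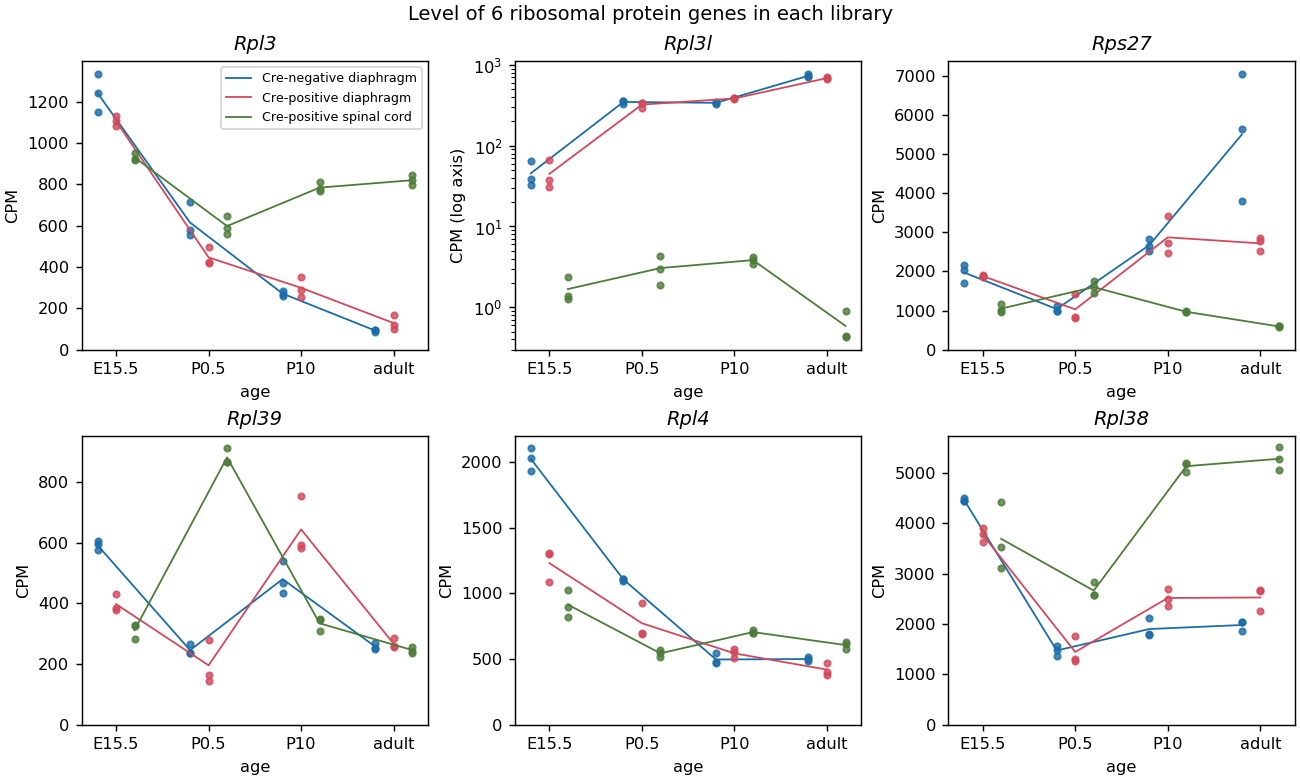
CPM per library of Rpl3, Rpl3l, Rps27, Rpl39, Rpl4 and Rpl38 at the 4 ages, with a panel per gene, a point per library and lines through the group means; the axis of Rpl3l is logarithmic. Rpl3 declines with age in the diaphragm of both genotypes, from 1081 CPM and above at E15.5 to 165 CPM and below in adults, while Rpl3l rises there and stays at 4.3 CPM or below in spinal cord.

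From P0.5 to P10 the diaphragm showed no such common direction. Of 81 tested members 37 rose and 13 fell, against a background of 21.4% higher and 13% lower, with a median log2 difference of 0.21 over the members and 0.14 over all genes. In each genotype alone, 31 rose and 17 fell without Cre (background 20.3% higher and 13.4% lower), and 34 rose and 9 fell with Cre (background 9.33% higher and 6.53% lower). Of these, 25 rose in both genotypes and 8 fell in both, among them Rpl3, Rpl4, Rpl5, Rpl23, Rpl26, Rps3 and Rps18. The share of all genes called in both genotypes is not given, so these joint counts have no background. Without the intermediate libraries 21 rose and 6 fell. Skeletal muscle markers took 19.2% to 21.4% of the reads at P0.5 and 11.5% to 12.7% at P10, and their part in these counts was not tested.

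The largest rise was that of Rpl37a, a zinc-finger protein of the large subunit. Its CPM went from 318, 376 and 353 to 1462, 1590.2 and 1474 without Cre and from 448, 599 and 454 to 1589.6, 1728 and 1629.9 with Cre, and no P10 library overlapped a P0.5 library (log2 difference 1.92 ± 0.10, adjusted p = 3.19e-12). Rps27, a zinc-finger protein of the small subunit, went from 997, 1120 and 996 to 2839, 2534 and 2645 CPM without Cre and from 821, 1435 and 836 to 2482, 3412 and 2723 with Cre (log2 difference 1.44 ± 0.13, adjusted p = 5.91e-08). Rps28 and Rpl39, the latter a very short protein of the exit tunnel, rose as well, with log2 differences of 1.66 ± 0.21, adjusted p = 3.18e-06 and 1.36 ± 0.12, adjusted p = 2.79e-08. Among those that fell were Rps18 (log2 difference -0.96 ± 0.11, adjusted p = 5.25e-07) and Rpl5, which carries the ribosomal 5S RNA (-0.87 ± 0.09, adjusted p = 1.20e-07).

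From P10 to adult age most called members fell, but the split depended on the scaling. Of 81 tested members 8 rose and 35 fell, against a background of 8.01% higher and 24% lower. In each genotype alone, 11 rose and 18 fell without Cre (background 7.62% higher and 17.5% lower), and 4 rose and 40 fell with Cre (background 4% higher and 15.1% lower). Of these, 3 rose in both genotypes and 18 fell in both (with no all-gene share for such joint counts), while Rps2 and Rpl29 were called in opposite directions. Rps2 had log2 differences of 0.38 ± 0.09 without Cre (adjusted p = 0.00271) and -0.31 ± 0.09 with Cre (adjusted p = 0.0161), and Rpl29 of 0.39 ± 0.11 without Cre (adjusted p = 0.0155) and -0.45 ± 0.11 with Cre (adjusted p = 0.00744). The Cre difference changed between these ages by -0.69 ± 0.12 for Rps2 (adjusted p = 0.00224) and by -0.84 ± 0.16 for Rpl29 (adjusted p = 0.00414), calls that were lost without the intermediate libraries. The ratio of the adult to the P10 share of all members was 1.02 ± 0.0826 without Cre and 0.836 ± 0.0482 with Cre (SDs of both groups carried over, n = 3 libraries a group). With RLE size factors, which scale each library to the median ratio over genes, 20 rose and 10 fell over both genotypes (17 and 5 without Cre, 9 and 10 with Cre), and without the intermediate libraries 1 rose and 12 fell. No all-gene share is given for these settings, so the counts are not set against the backgrounds above. The member median was -0.18 and that of all genes -0.25, and RLE moved the latter by 0.20. Rpl3l was the member that still rose without the intermediate libraries (adjusted p = 0.0214). Rpl23a had a log2 difference of -1.08 ± 0.08, adjusted p = 5.22e-10, falling from 1315, 1150 and 1256 to 591, 588 and 617 CPM without Cre and from 1103, 993 and 1046 to 454, 493 and 507 with Cre. Rpl39 (log2 difference -1.07 ± 0.12, adjusted p = 6.23e-07) and Rplp0 (-0.98 ± 0.08, adjusted p = 1.29e-08) fell too, and these 3 were called in each genotype alone. Rpsa and Rps15, both of the small subunit, rose by 0.38 and 0.35 on the log2 scale (adjusted p = 9.72e-04 and 1.10e-04), calls that were lost without the intermediate libraries (adjusted p = 0.0913 and 0.0887). Rps27 was called over both genotypes (0.46 ± 0.13, adjusted p = 0.011, or 0.245 with the intermediate ones left out) but differed between them. It went from 2839, 2534 and 2645 to 5651, 3799 and 7057 CPM without Cre and from 2482, 3412 and 2723 to 2527, 2768 and 2859.9 with Cre, with log2 differences of 0.998 ± 0.19 without Cre (adjusted p = 6.03e-04) and -0.07 ± 0.19 with Cre (adjusted p = 0.87). The test of that difference gave -1.07 ± 0.27 (adjusted p = 0.0244), which was not called with the intermediate libraries left out. All 10 tested markers of dividing cells except 1 fell at this step, and 9 of 15 muscle markers rose.

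**Figure D3:**
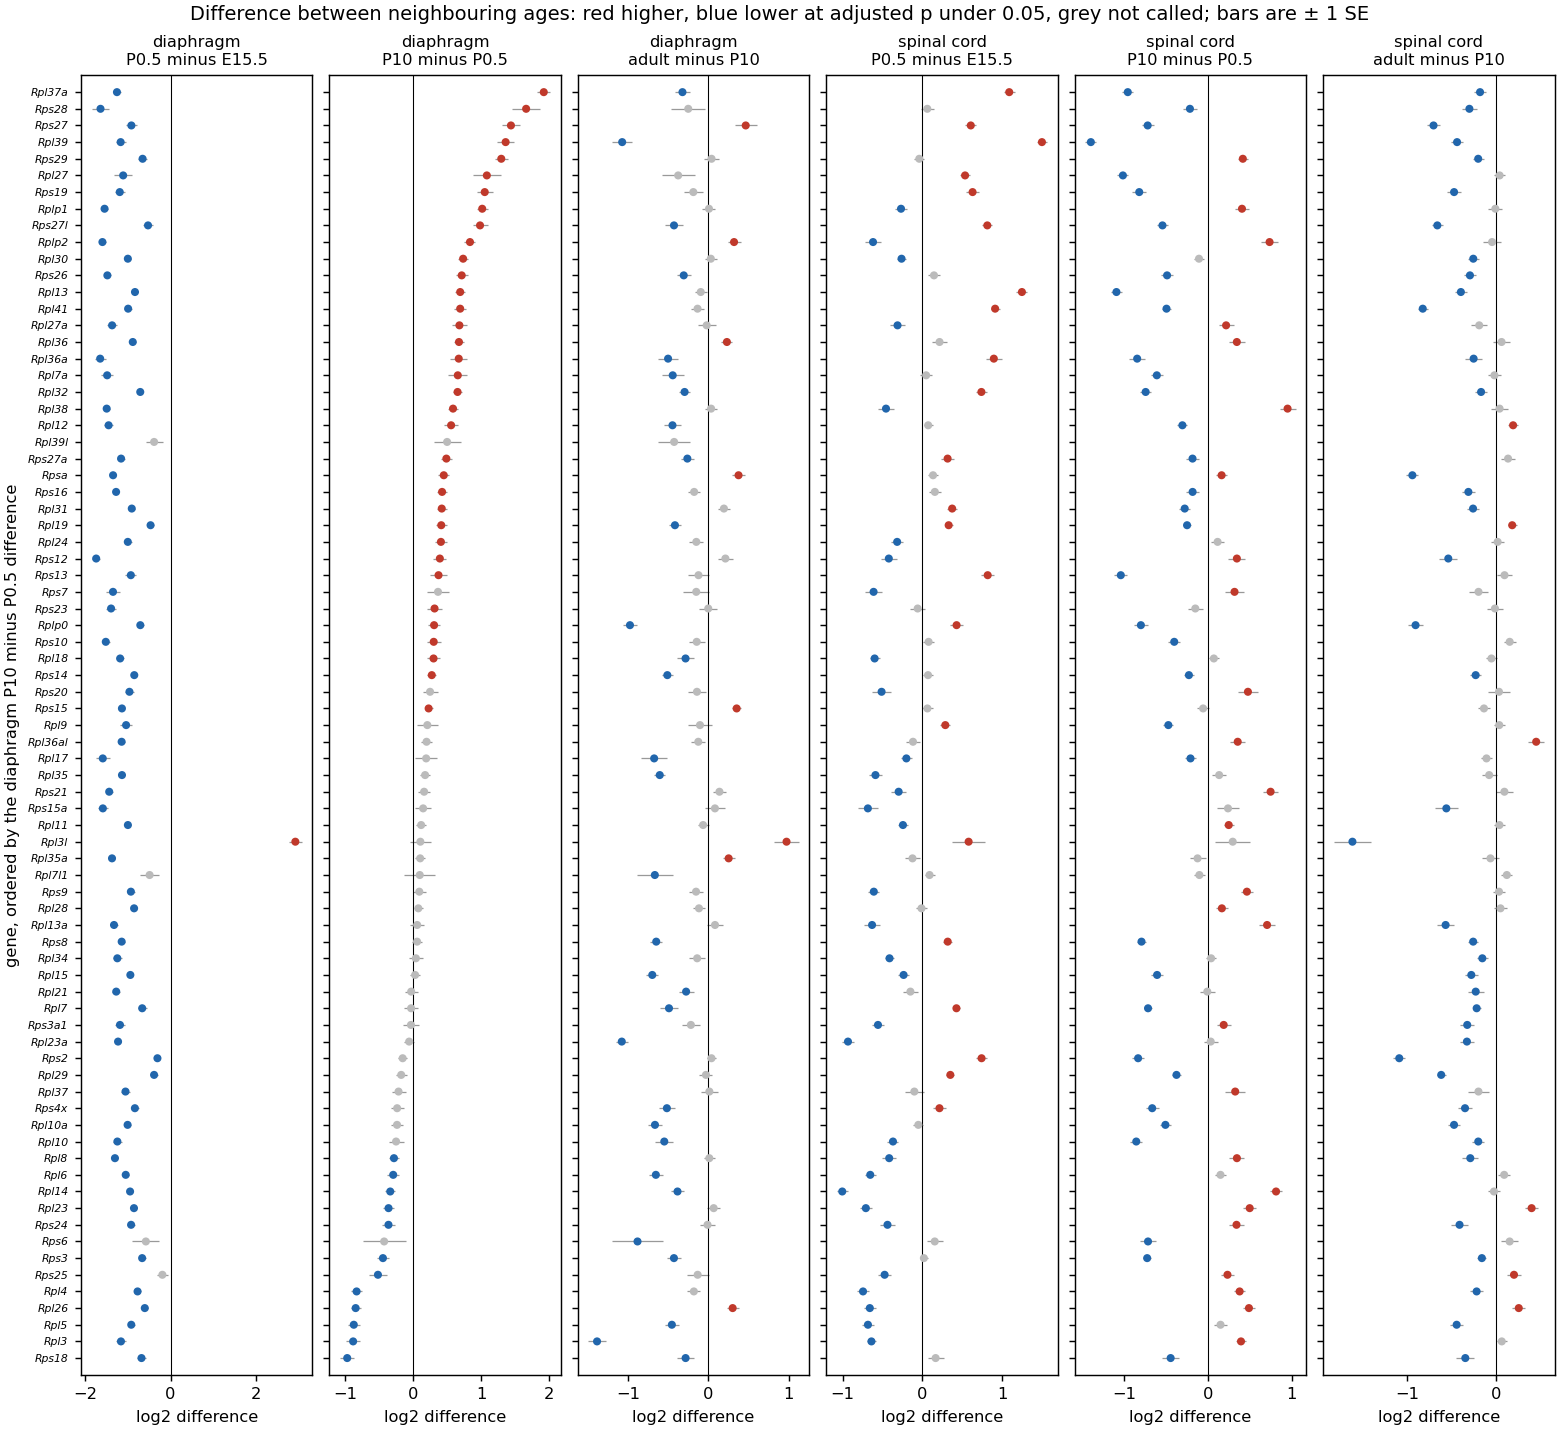
Log2 difference between neighbouring ages with its standard error for 77 of the 81 members tested in diaphragm (both genotypes) and 76 of the 80 tested in spinal cord, with a panel for each of 6 comparisons and the genes in the order of their P10 minus P0.5 difference in diaphragm; red and blue mark an adjusted p under 0.05 above and below 0, and grey marks the rest. Nearly all points of the first diaphragm panel lie below 0, with 72 of those drawn called lower and 1 called higher, and the other panels hold calls on both sides.

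In Cre-positive spinal cord, members moved both ways at every step, as did all genes. At the steps to P0.5 and to P10 the shares of members called were near the background, so they mark no behaviour particular to these genes. From P10 to adult age a smaller share of members than of all genes rose on the CPM scale. Between E15.5 and P0.5, 25 of 80 tested members rose and 33 fell (background 27.9% higher and 44.4% lower of 13373 genes), and with RLE size factors 38 rose and 23 fell. The member median was -0.03 and that of all genes -0.13. Rpl39 rose from 283, 327 and 325 to 866, 913 and 865 CPM (log2 difference 1.499 ± 0.07, adjusted p = 6.75e-11), with the groups well apart, at the step at which it fell in the diaphragm (-1.17 ± 0.12, adjusted p = 7.34e-08). Rpl13, Rpl37a and Rpl41 of the large subunit rose as well, with log2 differences of 1.25 ± 0.07, adjusted p = 6.30e-10, 1.09 ± 0.07, adjusted p = 2.07e-09 and 0.91 ± 0.06, adjusted p = 2.48e-09. Rpl14 fell from 713, 854 and 768 to 361, 401 and 398 CPM (log2 difference -1.005 ± 0.07, adjusted p = 4.40e-09), and so did Rpl23a (-0.93 ± 0.08, adjusted p = 9.22e-08) and Rpl4 (-0.74 ± 0.07, adjusted p = 1.52e-07).

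Between P0.5 and P10 in the cord, 26 of 80 members rose and 39 fell (background 35.2% higher and 43.5% lower), with a member median of -0.14 against -0.08 over all genes. Rpl39 and Rpl13, which had risen at birth, fell again. Rpl39 went from 866, 913 and 865 to 347, 309.9 and 345 CPM (log2 difference -1.40 ± 0.07, adjusted p = 2.91e-11), and Rpl13 had a log2 difference of -1.09 ± 0.07, adjusted p = 8.14e-10. Rps13 of the small subunit fell by 1.04 ± 0.08 (adjusted p = 7.27e-09). Rpl38 rose from 2573, 2839.8 and 2585 to 5027, 5182 and 5209.7 CPM (log2 difference 0.95 ± 0.10, adjusted p = 7.23e-07), with no overlap, and Rpl14 returned upward (0.81 ± 0.07, adjusted p = 2.02e-08). Rps21 and Rplp2 rose too, with log2 differences of 0.75 ± 0.09, adjusted p = 3.70e-06 and 0.73 ± 0.10, adjusted p = 9.19e-06. Oligodendrocyte markers rose with age here, 9 of 10 tested, and took 0.101% to 0.109% of the reads at P0.5 and 1.60% to 2.14% at P10, with no marker of the 10 at 0. Schwann cell markers, of which 6 of 7 tested rose, took 0.0462% to 0.0482% and 0.476% to 0.486%, and their part in these values was not tested.

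From P10 to adult cord, 7 members rose and 42 fell (background 23.6% higher and 44.3% lower), with a member median of -0.19 against -0.16 over all genes. RLE size factors gave 22 and 17, and without the intermediate libraries 2 rose and 24 fell. The stalk protein Rplp0 and the small-subunit proteins Rps2 and Rpsa fell. Rps2 went from 976, 1016 and 998 to 517, 438 and 452 CPM (log2 difference -1.09 ± 0.07, adjusted p = 1.98e-09), Rpsa had a log2 difference of -0.94 ± 0.07, adjusted p = 8.35e-09 and Rplp0 of -0.91 ± 0.08, adjusted p = 1.04e-07. Rpl41, a very short large-subunit protein, fell too (-0.82 ± 0.06, adjusted p = 8.03e-09). Rpl36al and Rpl23 rose, with log2 differences of 0.45 ± 0.09, adjusted p = 4.14e-04 and 0.40 ± 0.08, adjusted p = 3.14e-04. Rpl26 also rose (0.26 ± 0.07, adjusted p = 0.00616), and lost the call without the intermediate libraries (adjusted p = 0.109). All 10 oligodendrocyte markers fell at this step, from 1.60% to 2.14% to 0.256% to 0.428% of the reads, which was not tested against these values.

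Within Cre-positive mice, the ribosomal protein genes stood higher in diaphragm than in spinal cord at E15.5 and were split at the later ages. At E15.5, 69 of 81 tested members were higher in diaphragm and 0 were lower (at an unadjusted p under 0.05, limma gave 71 members in either direction, and edgeR on the recovered reads 80 higher and 0 lower), where the background over 14831 genes was 21.5% higher and 52.1% lower. The counts were 22 higher and 42 lower at P0.5 (background 18.4% higher and 56.9% lower), 41 and 14 at P10 (background 19.9% higher and 53.1% lower), and 27 and 26 in adults (background 19.5% higher and 55.3% lower). Member medians were 0.72, -0.24, 0.25 and 0.04 from the youngest to the oldest group, against -0.58, -0.80, -0.63 and -0.72 over all genes. RLE size factors moved the all-gene medians up by 0.48, 0.58, 0.43 and 0.50, and with them 80, 55, 70 and 67 members were higher and 0, 5, 3 and 5 lower. These counts include that shift of all genes, and no all-gene share under RLE is given beside them. The member median minus the all-gene median was 1.30, 0.56, 0.88 and 0.76, and 1.44, 0.77, 1.05 and 1.10 under RLE. Without the intermediate libraries the counts were 58 higher and 0 lower, 14 and 24, 34 and 10, and 23 and 19. The tissues differ in nearly all markers as well: at E15.5, 10 of 10 erythroid markers and 10 of 10 of dividing cells were higher in diaphragm, and 10 of 10 motor neuron markers were lower.

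Rps12 and Rpsa led the members that were higher in diaphragm at E15.5, after Rpl3l. Rps12 was 2809, 2057 and 2750.5 CPM in diaphragm and 668, 881 and 719 in cord (log2 difference, diaphragm minus cord, 1.74 ± 0.14, adjusted p = 1.34e-09), and the tissues did not overlap. Rpsa had a log2 difference of 1.72 ± 0.10, adjusted p = 3.04e-12. In adults Rps12 and Rpsa were again higher in diaphragm (1.39 ± 0.14, adjusted p = 3.25e-08, and 1.77 ± 0.10, adjusted p = 1.31e-12). Rpl3l was 1.26, 2.40 and 1.38 CPM in cord at E15.5 and 0.888, 0.442 and 0.434 in adult cord, against the diaphragm values above. Its log2 difference was 4.04 ± 0.23 at E15.5, 6.36 ± 0.23 at P0.5, 6.32 ± 0.23 at P10 and 8.77 ± 0.23 in adults (adjusted p = 4.06e-12, 1.96e-15, 2.47e-15 and 1.34e-17). Because 1 was added to each CPM, these differences understate the ratio where the cord value is near or under 1 CPM.

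Rpl3 ran the other way in older tissue. In cord it was 917, 951 and 922 CPM at E15.5, 557, 647 and 589 at P0.5, 809, 766 and 776 at P10, and finally 844, 795 and 819.6 in adults, and every P10 and adult diaphragm library lay below every cord library. The log2 difference was -1.40 ± 0.13, adjusted p = 6.52e-09 at P10 and -2.69 ± 0.13, adjusted p = 1.73e-13 in adults. At P0.5 it was -0.42 ± 0.13 (adjusted p = 0.00622) but turned to 0.39 under RLE size factors. Rps27 showed the reverse order at P10 and in adults. Its CPM in cord was 972, 1165 and 1014 at E15.5, 1457, 1748 and 1592 at P0.5, 956, 978 and 969.9 at P10, and finally 597, 603 and 582 in adults. At P0.5 Rps27 was lower in diaphragm, as Rpl3 was (-0.68 ± 0.15, adjusted p = 4.42e-04), but turned to 0.14 under RLE size factors. It was higher in diaphragm at P10 (1.55 ± 0.15, adjusted p = 1.39e-08) and in adults (2.19 ± 0.15, adjusted p = 5.96e-11), and no adult diaphragm library was below 2527 CPM.

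At P0.5 the largest differences below 0 were those of Rpl39, Rpl27, Rpl37a and Rps13. Rpl39 was 145, 279.7 and 163 CPM in Cre-positive diaphragm and 866, 913 and 865 in cord (log2 difference -2.23 ± 0.16, adjusted p = 1.34e-10), with no overlap. Rpl27, Rpl37a and Rps13 had log2 differences of -1.75 ± 0.13, adjusted p = 2.02e-10, -1.52 ± 0.10, adjusted p = 4.73e-11 and -1.499 ± 0.11, adjusted p = 3.28e-10. Rpl5, Rps25 and Rpl26 were higher in diaphragm at this age (1.01 ± 0.12, adjusted p = 1.44e-07, then 0.96 ± 0.16, adjusted p = 2.67e-05, then 0.75 ± 0.09, adjusted p = 4.72e-07). At P10 Rplp0 was higher in diaphragm (1.26 ± 0.12, adjusted p = 8.51e-09), while Rpl38 and Rps21 were lower (-1.03 ± 0.12, adjusted p = 1.06e-07, and -0.99 ± 0.10, adjusted p = 2.98e-08). Rpl38, a protein of the large subunit known for its part in patterning of the vertebrate skeleton, was 2493, 2698 and 2367 CPM in diaphragm and 5027, 5182 and 5209.7 in cord at P10. In adults Rpl23a was lower in diaphragm (-1.21 ± 0.09, adjusted p = 1.88e-10).

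The tissue difference itself changed with age for many members. From E15.5 to P0.5 it fell for 67 of 81 tested members and rose for 1 (background 11.8% higher and 26.8% lower), and 37 fell and 1 rose without the intermediate libraries. From P0.5 to P10 it rose for 42 and fell for 10 (background 28.3% higher and 18.1% lower), with 32 and 16 under RLE and 26 and 6 without the intermediate libraries. From P10 to adult age it rose for 9 and fell for 25 (background 14.3% higher and 20.1% lower), with 12 and 12 under RLE and 3 and 4 without the intermediate libraries. Rpl39 had the largest change at the first step (log2 -2.58 ± 0.23, adjusted p = 5.39e-08), followed by Rpl36a (-2.32 ± 0.25, adjusted p = 7.94e-07), and at the next step Rpl39 (3.16 ± 0.23, adjusted p = 2.06e-09) and Rpl37a (2.69 ± 0.15, adjusted p = 4.48e-11) had the largest rises.

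**Figure D4:**
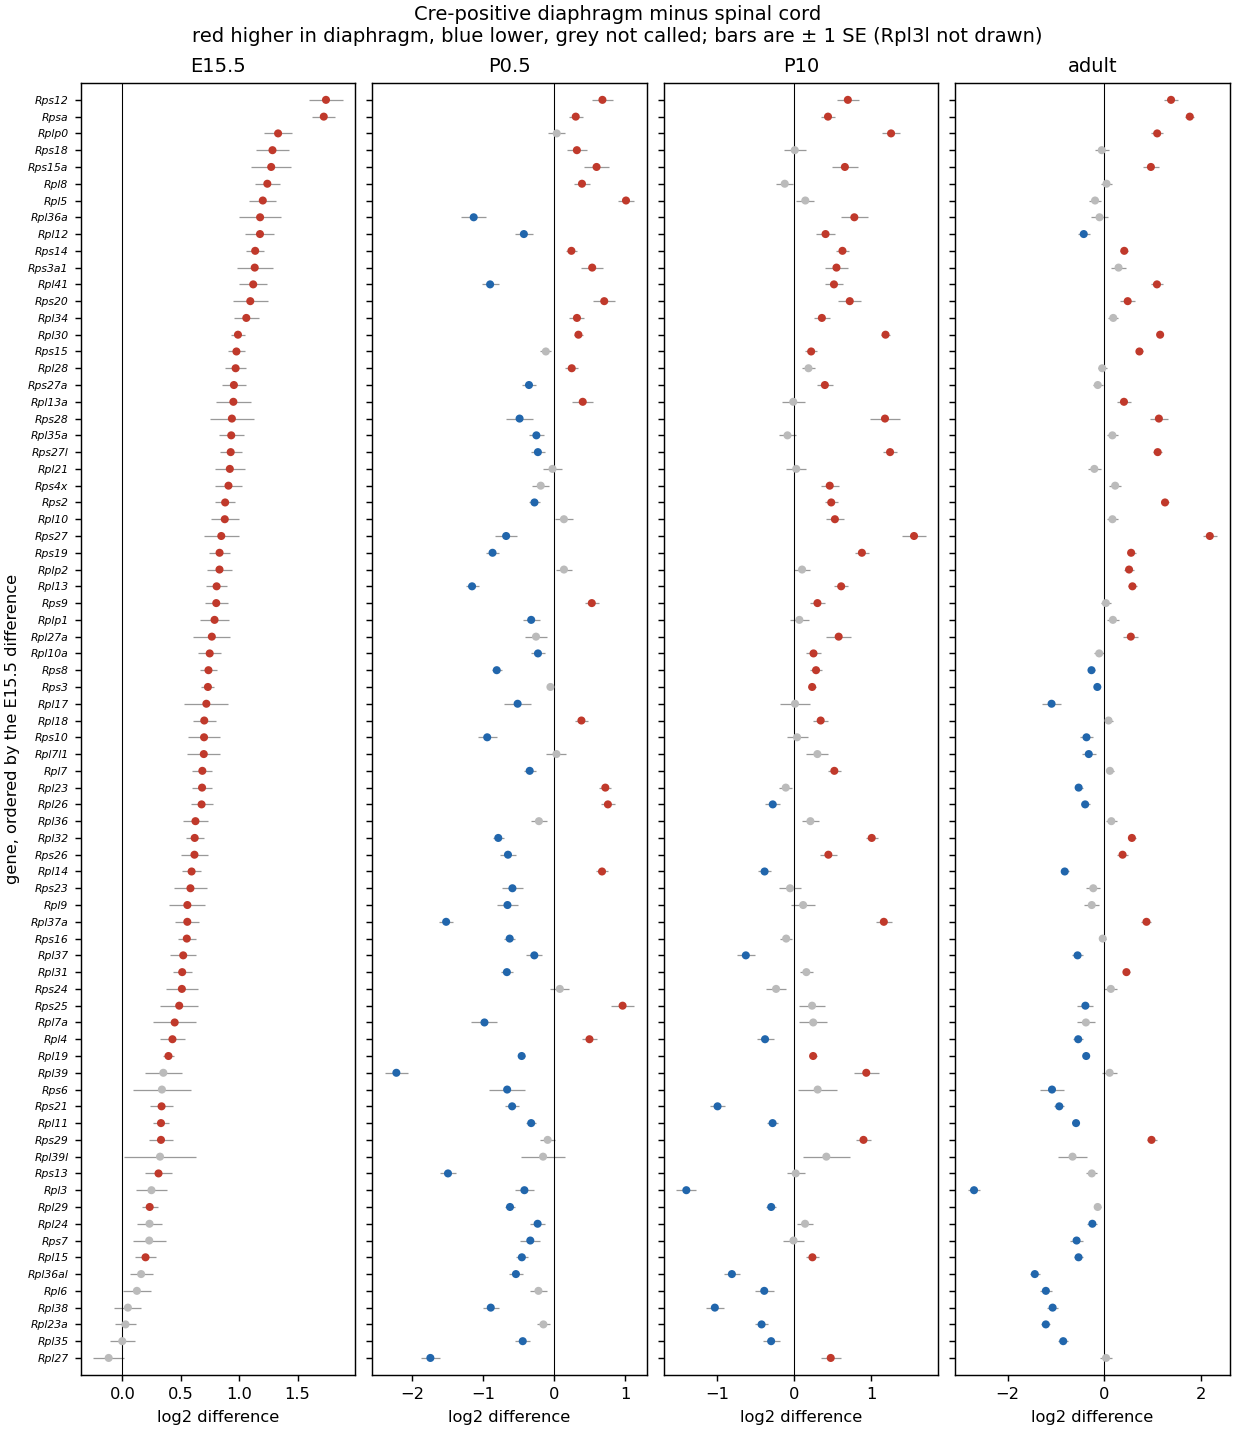
Log2 difference, Cre-positive diaphragm minus Cre-positive spinal cord, with its standard error for 76 of the 81 tested members at the 4 ages, with a panel per age (Rpl3l, at 4.04 to 8.77, is not drawn); red and blue mark an adjusted p under 0.05 above and below 0, and grey marks the rest. At E15.5 no member is called lower in diaphragm, and at the later ages calls lie on both sides of 0.

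Between Cre-positive and Cre-negative diaphragm, the comparison the study design names, the calls depended on the scaling and were lost when the intermediate libraries were left out. At E15.5, 5 of 81 tested members were higher and 21 lower with Cre (background 4.88% higher and 6.11% lower). The counts were 12 higher and 14 lower at P0.5 (background 12.1% higher and 15.7% lower), 1 and 0 at P10 (background 0.419% higher and 1.03% lower), and 3 and 15 in adults (background 3.06% higher and 8.92% lower). Member medians were -0.19, -0.07, 0.16 and -0.11, against -0.06, -0.01, -0.13 and -0.12 over all genes. RLE size factors gave 7 higher and 3 lower, 35 and 0, 2 and 0, and 16 and 4, moving the all-gene medians by 0.12, 0.20, 0.13 and 0.14. Those counts include that shift, and the backgrounds above are not for RLE. Without the intermediate libraries no member was called at any age (with limma, 18, 17, 4 and 14 members had an unadjusted p under 0.05, and no other tool was run on that subset). At E15.5, leaving out a single library gave 16, 12 and 17 calls without Cre-negative replicates 1, 2 and 3, and 15 and 10 without Cre-positive replicates 1 and 3. At P0.5 there were 17 without Cre-positive replicate 3, and at P10 there were 2 without replicate 2 of either genotype. At P0.5, 10 of 15 muscle markers were lower with Cre and 4 of 10 tested erythroid markers higher, which was not tested against these counts.

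Rpl4, a large-subunit protein that lines the exit tunnel, was lower with Cre at E15.5 and P0.5. Its CPM at E15.5 was 2111, 2033 and 1930.4 without Cre and 1298, 1088 and 1306 with Cre (log2 difference -0.72 ± 0.12, adjusted p = 4.39e-04). At P0.5 it was 1097, 1112 and 1111 without Cre and 699.8, 929.6 and 689 with Cre (log2 difference -0.53 ± 0.12, adjusted p = 0.00214, and -0.11 with an adjusted p of 0.59 under RLE). The genotypes did not overlap at either age, and both calls held when any single library was left out. Rpl6 was lower at the same ages (-0.68 ± 0.13, adjusted p = 0.00153, and -0.58 ± 0.13, adjusted p = 0.00196), the second with an adjusted p of 0.485 under RLE. Rpl18 was higher with Cre at P0.5, at 549.8, 901 and 797 CPM without Cre and 1256, 1224 and 1239.7 with Cre (log2 difference 0.76 ± 0.14, adjusted p = 7.20e-04), and the genotypes did not overlap.

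At P10 Rpl30 was the single member called, at 962, 872 and 932 CPM without Cre and 1342, 1457 and 1331 with Cre (log2 difference 0.58 ± 0.10, adjusted p = 0.00406). In adults Rps7 was 885, 476 and 1080.2 CPM without Cre and 304, 351 and 343 with Cre (log2 difference -1.21 ± 0.23, adjusted p = 0.00127), and Rps27 was 5651, 3799 and 7057 and 2527, 2768 and 2859.9 (log2 difference -0.97 ± 0.19, adjusted p = 0.00174). The adult genotypes did not overlap for either gene, and the Cre-negative libraries of Rps27 were spread widely. Rpl17 and Rps19 were lower with Cre as well (-1.07 ± 0.23, adjusted p = 0.00367, and -0.90 ± 0.16, adjusted p = 9.72e-04), Rps19 with an adjusted p of 0.0616 under RLE. Rps15 was higher (0.37 ± 0.08, adjusted p = 0.0061). Rpl3 and Rpl3l had adjusted p of 0.0599 and 0.884 between the adult genotypes. The Cre difference changed between neighbouring ages for 6 members from E15.5 to P0.5, all upward (background 5.62% higher and 4.28% lower), for 9 upward and 1 downward from P0.5 to P10 (background 4.2% higher and 6.12% lower, and 0 and 4 under RLE), and for 11 downward from P10 to adult age (background 1.74% higher and 2.47% lower). The count from P0.5 to P10 was 25 without Cre-positive replicate 2 of P0.5, and between 4 and 6 without Cre-positive replicate 1 or 3 of P0.5, Cre-negative replicate 3 of P0.5, Cre-negative replicate 1 or 3 of P10, or Cre-positive replicate 2 or 3 of P10. None of these changes was called without the intermediate libraries, with limma, where 6, 5 and 11 members had an unadjusted p under 0.05.

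The pairs Rps27l with Rps27 and Rpl36al with Rpl36a also changed their ratio with age, over a narrower range than Rpl3l and Rpl3. Rps27l is a p53-linked paralog of Rps27. In Cre-negative diaphragm its ratio to the Rps27 CPM was 0.277 ± 0.0383, 0.323 ± 0.0691, 0.2535 ± 0.0104 and 0.122 ± 0.0173 from E15.5 to adult age (SD, n = 3). In Cre-positive diaphragm the ratio was 0.250 ± 0.0443, 0.379 ± 0.102, 0.249 ± 0.0394 and 0.149 ± 0.0046. Rps27l itself was 546, 526 and 546 CPM at E15.5 and 689, 531 and 743 CPM in adults without Cre. With Cre its mean was 471 CPM at E15.5 and 405 CPM in adults. In cord the ratio was 0.235 ± 0.0280, 0.271 ± 0.0143, 0.306 ± 0.0186 and 0.315 ± 0.0203 from E15.5 to adult age. Rpl36al, a near-identical paralog of Rpl36a, whose reads the counting could have split with it, had ratios to Rpl36a in cord of 2.78 ± 0.0729, 1.38 ± 0.0570, 3.16 ± 0.141 and 5.16 ± 0.121. In diaphragm this ratio had no common course between the genotypes. Without Cre it was 1.101 ± 0.0406, 1.465 ± 0.127, 1.504 ± 0.103 and 1.31 ± 0.0911 from E15.5 to adult age. With Cre it was 1.374 ± 0.118, 2.087 ± 0.219, 1.049 ± 0.0181 and 2.106 ± 0.706. In adults Rpl36al was lower in diaphragm than in cord (-1.44 ± 0.10, adjusted p = 6.25e-11), at 432, 435 and 428 CPM against 1091, 1240.2 and 1179, with no overlap. Rpl7l1, a nucleolar relative of Rpl7, was 15.1, 13.0 and 13.8 CPM in adult Cre-positive diaphragm and 17.9, 17.1 and 17.9 in adult cord (log2 difference -0.32 ± 0.14, adjusted p = 0.0495, which turned to 0.48 under RLE and lost the call when any of 5 of the 6 libraries was left out). Rpl10l and Rps4l are not analysed here.

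Genes that work with the ribosomal proteins were read as whole lists by function, against the all-gene backgrounds and medians given above. Of 39 ribosome biogenesis genes, such as the nucleolar factors Gar1 and Nop2, 1 rose and 19 fell in diaphragm from E15.5 to P0.5 (0 and 4 without the intermediate libraries) with a list median of -0.58, where Gar1 had a log2 difference of -2.39 ± 0.37, adjusted p = 1.67e-05. In cord 4 rose and 30 fell at that step (list median -0.76), 21 and 8 from P0.5 to P10 and 18 and 10 from P10 to adult age, each given as rises and then falls. Nop16 in cord had a log2 difference of -1.42 ± 0.06, adjusted p = 2.70e-11 at the first step. Of 15 other TOP messengers, which encode translation factors and binding proteins, 0 rose and 12 fell in diaphragm at birth, with a list median of -0.70 and with Eef1b2, a subunit of the elongation factor exchange complex, at -1.26 ± 0.12, adjusted p = 2.49e-08. In cord 1 rose and 10 fell at birth (list median -0.29), with Eef1b2 at -1.12 ± 0.05, adjusted p = 9.38e-11. Eef1a1, the main elongation factor, fell in diaphragm from P10 to adult age (-1.44 ± 0.10, adjusted p = 3.24e-10) and in cord at the same step (-1.66 ± 0.11, adjusted p = 1.97e-08).

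Among 78 mitochondrial ribosomal protein genes, a separate set that serves the ribosomes of mitochondria, 29 rose and 4 fell in diaphragm from E15.5 to P0.5 (list median 0.17), with 33 and 1 under RLE and 15 and 0 without the intermediate libraries. In Cre-negative diaphragm their summed share of the reads was 1.13% ± 0.00976 at E15.5, 1.42% ± 0.0387 at P0.5, 1.51% ± 0.0896 at P10 and 1.74% ± 0.216 in adults (SD, n = 3). Of 15 regulators around mTOR, LARP1 and MYC, 3 rose and 5 fell in diaphragm at birth (list median -0.37). Between Cre-positive diaphragm and cord, most called regulators were lower in diaphragm on the CPM scale, as were most called genes of the background at every age. The list medians were below the all-gene medians given above at E15.5 and P0.5, and above them at P10 and in adults. The split of the regulators turned at P10 and in adults under RLE, for which no all-gene share is given. The numbers higher and lower, from the youngest to the oldest group, were 1 and 10, then 3 and 11, then 4 and 6, then 3 and 5, with list medians of -0.63, -1.01, -0.39 and -0.07. Under RLE they were 3 and 5, then 5 and 5, then 6 and 3, then 7 and 3. Eif4ebp1, the single regulator called higher at E15.5 on the CPM scale and a repressor of translation that mTOR switches off, was higher in Cre-positive diaphragm than in cord at E15.5 (2.55 ± 0.21, adjusted p = 1.68e-09), P0.5 (3.94 ± 0.21, adjusted p = 1.33e-12) and P10 (3.81 ± 0.21, adjusted p = 2.57e-12). Rheb, the small GTPase that activates mTOR, was lower in diaphragm than in cord at E15.5 (-2.85 ± 0.17, adjusted p = 8.44e-12) and in adults (-3.48 ± 0.17, adjusted p = 2.32e-13), and in diaphragm it rose at birth (1.79 ± 0.16, adjusted p = 9.12e-09) and fell again by P10 (-1.67 ± 0.16, adjusted p = 8.74e-08). Mycn fell in cord at birth (-1.49 ± 0.10, adjusted p = 6.47e-09) and again by P10 (-1.71 ± 0.10, adjusted p = 5.09e-10).

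The age at which each member stood highest also differed between the tissues. Over the 80 members with at least 10 CPM in some group, the mean was highest at E15.5 for 74 in diaphragm without Cre and for 69 with Cre. The exceptions in Cre-negative diaphragm were Rpl37a and Rps27l, highest at P10, and Rpl3l, Rps19, Rps27 and Rps29, highest in adults. In cord, 29 of 79 members were highest at E15.5, 35 at P0.5, 6 at P10 and 9 in adults, and 42 of the 79 were lowest in adults. This order rests on group means and has no test of its own. The share of all genes that stood highest or lowest at each age is not given. These counts therefore describe the members and do not set them apart from other genes.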

How the data were processed

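RNA pulled down through HA-tagged Rpl22 was sequenced in 36 libraries, 3 for each of 12 groups of age, tissue and Cre genotype. The authors deposited a single table of CPM (read counts scaled to the same total in every library) per gene and library. The submitters' processing notes name Bowtie2 2.2.5, RSEM 1.2.12 and the mouse build mm10, with no role or order. Each CPM value is a whole multiple of the value of 1 read in its library, for 100% of values, so reads were recovered for the count tests.

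The 3 linear models in limma 3.58.1 (R 4.3.3) used log2(CPM + 1) for genes with at least 1 CPM in at least 3 libraries: 24 diaphragm libraries, 12 Cre-positive diaphragm with 12 spinal cord libraries, and 12 spinal cord libraries. They gave 14 comparisons and 6 changes of a difference. P-values were adjusted by Benjamini-Hochberg over all genes tested, with a threshold of 0.05. The scripts were tested on simulated data. Alternatives were a pseudocount of 0.1, no filter, RLE size factors, edgeR 4.0.16 and DESeq2 1.42.0 on recovered reads, the compared groups only, a replicate block, and libraries left out.

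The members and lists were chosen with earlier results of these data known. Genes named are the paralog pairs, the stalk, the members with the most and the fewest reads, up to 4 called members per direction and comparison with the largest differences and at least 10 CPM, up to 2 per change of a difference, and up to 2 called genes per list. Genes shown in the plots, those called in both genotypes, in the same or opposite directions, and those that peak at other ages are named after their values were seen. Some genes that these rules name are not reported here and are left out of the plots by gene, while counts and sums over the members include them. Same-numbered libraries had correlations of deviations between -0.0959 and 0.0759. These values show no pairing by number, but they cannot exclude it where other spread between libraries is large.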

Additional observations from a re-analysis of the deposited data

Results flagged for a closer look

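The difference between Cre-positive diaphragm and spinal cord changed between neighbouring ages by the test of the change itself, and the results named are up to 2 with the largest changes at each step. From E15.5 to P0.5 the log2 difference changed by -2.58 for Rpl39 and by -2.32 for Rpl36a. From P0.5 to P10 it changed by 3.16 for Rpl39 and by 2.69 for Rpl37a. From P10 to adult age it changed by 2.45 for Rpl3l, the muscle paralog of Rpl3, and by -1.38 for Rps6 (adjusted p = 0.00531), and the call of Rps6 was lost without the intermediate libraries (adjusted p = 0.126).

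The difference between Cre-positive and Cre-negative diaphragm also changed in the same kind of test, with up to 2 results named at each step. From E15.5 to P0.5 it changed by 0.715 for Rps26 and 0.657 for Rpl36al. From P0.5 to P10 it changed by 0.803 for Rpl39 and 0.797 for Rpl36a. From P10 to adult age it changed by -1.25 for Rpl36a and -1.21 for Rps7. Without the intermediate libraries none of these 6 was called (adjusted p between 0.474 and 1). The call of Rpl39 held only without P0.5 Cre-negative replicate 1, P0.5 Cre-positive replicate 2, P10 Cre-negative replicate 2 or P10 Cre-positive replicate 1, that of Rpl36a from P0.5 to P10 only without P0.5 Cre-positive replicate 2, and that of Rps7 only without P10 or adult Cre-negative replicate 2.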

How the results depend on the processing

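Counts below are members called in either direction. Without the intermediate libraries the Cre comparisons gave 0 calls at E15.5, 0 at P0.5, 0 at P10 and 0 in adults, and the changes of the Cre difference gave 0 at each step. The same setting gave 38 for the tissue comparison at P0.5, 27 for diaphragm P10 minus P0.5, 13 for diaphragm adult minus P10, 26 for spinal cord adult minus P10, and 38, 32 and 7 for the 3 changes of the tissue difference. The Cre comparison at E15.5 gave 10 calls with RLE size factors, 7 with edgeR and 12 with DESeq2, against 26. At P0.5 it gave 6 with the compared groups only, against 26. At P10 it gave 2 with no filter, 2 with RLE, 16 with DESeq2 and 19 with the compared groups only, against 1. The change of the Cre difference from E15.5 to P0.5 gave 11, 11 and 15 with RLE, edgeR and DESeq2 and 1 with the compared groups only, against 6. From P0.5 to P10 it gave 4, 4, 6 and 6 in the same order, against 10, and from P10 to adult age 4, 4, 5 and 20, against 11. The change of the tissue difference from P10 to adult age gave 21 with edgeR, against 34. The ratio of the P10 to the P0.5 share in Cre-negative diaphragm, 1.16, was 1.08 outside the marker lists and 1.12 without the 5 most abundant members.

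Leaving out each library in turn gave 10 to 19 calls for the Cre comparison at E15.5, 17 to 37 at P0.5, 1 to 2 at P10 and 13 to 17 in adults, 4 to 7, 4 to 25 and 8 to 14 for the changes of the Cre difference, and 60 to 73, 47 to 56 and 27 to 34 for those of the tissue difference. It gave 77 to 79, 47 to 57 and 38 to 43 for the diaphragm steps, 55 to 65, 56 to 61 and 42 to 46 for the spinal cord steps, and 65 to 72, 54 to 64, 53 to 55 and 50 to 52 for the tissue comparisons.

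Signs turned in the tissue comparison with RLE, edgeR and DESeq2. At P0.5 the log2 difference became 0.39, 0.65 and 0.39 for Rpl3, 0.14, 0.39 and 0.14 for Rps27, 0.58, 0.85 and 0.59 for Rps27l, 0.27, 0.53 and 0.27 for Rpl36al, 0.47, 0.73 and 0.47 for Rpl7 and 0.49, 0.74 and 0.49 for Rplp1. In adults it became 0.48, 0.68 and 0.50 for Rpl7l1, and at P10 0.0155 with edgeR for Rpl36al. Of 194 calls of genes chosen by the naming rule, 158 held with RLE, 152 with edgeR, 159 with DESeq2, 178 with the compared groups only and 130 without the intermediate libraries. The replicate block left 191 of the 194, as did the lack of a filter, and moved no count past 1.5 times. Where causes are not given by the setting itself, the cause was not tested. The comparison with protein length was not run, since no protein lengths were used here.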
